A study of Homo sapiens with 8 samples.

Results

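The mitosis and G2/M genes are 45 genes that carry cells from late G2 through division, listed by symbol, and all 45 were found among the 64252 genes of each deposited table. They were taken by name, with earlier results of these data known, and were sorted here into 8 classes by the work their products do. RNA sequencing had been run on 6T-CEM and J.gamma1, established human cell lines from T-cell acute lymphoblastic leukemia (T-ALL), of which J.gamma1 derives from Jurkat. LDB1 is an adaptor protein that lets transcription factors at enhancers and promoters come together, and the study asked what its loss does to these leukemia cells. Cells of each line carried a pLKO.1 lentivirus that expressed sh-NC, a control shRNA, or sh-LDB1, which targets LDB1. Both arms had been through puromycin selection before harvest. Each of the 4 groups (6T-CEM sh-NC, 6T-CEM sh-LDB1, J.gamma1 sh-NC and J.gamma1 sh-LDB1) held 2 libraries, 8 in all. The sources used here do not say which of the study's LDB1 shRNAs was sequenced or whether the 2 libraries of a group came from separate transductions, so p-values measure the spread between these libraries, which may be technical.

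A cell enters mitosis when the kinase CDK1, bound to cyclin B or cyclin A, is switched on by CDC25 phosphatases with the help of PLK1 and Aurora A. Chromosomes then attach through their kinetochores to spindle microtubules, the spindle checkpoint holds back the ubiquitin ligase APC/C until every kinetochore is attached, and CDC20 with APC/C then releases the sister chromatids. Most of these genes are transcribed in a burst late in the cycle, so their mRNA in a culture follows both how many cells are in G2 and M and how strongly each cell transcribes them. In RNA from whole cultures these contributions cannot be told apart.

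The late burst is known to run through promoters that hold a cell cycle genes homology region (CHR), which the MuvB complex binds through LIN54, and CCAAT boxes, which NF-Y binds. Promoters from 250 bases before to 50 bases after the start of each gene (RefSeq, GRCh38.p14) were at hand for 38 of the 45 genes, and were not matched for AURKA, FOXM1, BUB3, TTK, UBE2C, BIRC5 and TPX2. The words searched on both strands were TTTGAA and TTCGAA for the CHR and CCAAT for the box, and a CHR can share its last base with a CCAAT on the other strand. A CHR word was present in 29 of 38 promoters (76.3%), against 16.6% of all 27305 promoters of the same length. A CCAAT box was present in 29 of 38 (76.3%), against 35.7%, and both words were in 24 of 38 (63.2%), against 6.58%. Of 21 matched S-phase genes, 2 held a CHR word (9.52%) and 14 a CCAAT box (66.7%). A match is a description of the letters and not a measured binding site.

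The 150 bases before the start are printed below for 8 genes whose changes are described further on, chosen to show the shared layout and its exceptions. Capitals mark CHR words and CCAAT boxes on either strand, so that ATTGG is a CCAAT read from the other strand. CCNB2, PLK1 and CDC20 are followed by PRC1 and CDCA8, which moved in opposite directions in the lines, then by MKI67, which has 2 CHR words, CCNB1, which has CCAAT boxes and no CHR word, and CENPE, which has neither.
CCNB2 (ENSG00000157456, chr15:59104996-59105145, plus strand): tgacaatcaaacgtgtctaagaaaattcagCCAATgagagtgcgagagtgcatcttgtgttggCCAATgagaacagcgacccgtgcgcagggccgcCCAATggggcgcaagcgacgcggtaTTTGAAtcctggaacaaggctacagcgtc
PLK1 (ENSG00000166851, chr16:23678739-23678888, plus strand): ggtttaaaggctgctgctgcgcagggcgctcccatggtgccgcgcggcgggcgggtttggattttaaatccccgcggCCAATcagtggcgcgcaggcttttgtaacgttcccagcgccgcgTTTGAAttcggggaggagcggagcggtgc
CDC20 (ENSG00000117399, chr1:43358831-43358980, plus strand): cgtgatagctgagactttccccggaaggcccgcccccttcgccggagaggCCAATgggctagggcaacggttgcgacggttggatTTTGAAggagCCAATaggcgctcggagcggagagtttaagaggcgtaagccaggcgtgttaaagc
PRC1 (ENSG00000198901, chr15:90994536-90994685, minus strand): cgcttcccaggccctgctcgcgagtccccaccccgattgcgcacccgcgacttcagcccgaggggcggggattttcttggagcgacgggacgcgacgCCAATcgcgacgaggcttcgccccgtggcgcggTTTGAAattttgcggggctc
CDCA8 (ENSG00000134690, chr1:37692366-37692515, plus strand): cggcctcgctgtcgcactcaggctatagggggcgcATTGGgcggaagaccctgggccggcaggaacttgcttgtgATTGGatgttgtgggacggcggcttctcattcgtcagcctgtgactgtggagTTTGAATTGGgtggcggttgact
MKI67 (ENSG00000148773, chr10:128126424-128126573, minus strand): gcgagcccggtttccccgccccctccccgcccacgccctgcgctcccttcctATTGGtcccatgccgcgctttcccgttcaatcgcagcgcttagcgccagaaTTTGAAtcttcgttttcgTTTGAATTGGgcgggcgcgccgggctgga
CCNB1 (ENSG00000134057, chr5:69167000-69167149, plus strand): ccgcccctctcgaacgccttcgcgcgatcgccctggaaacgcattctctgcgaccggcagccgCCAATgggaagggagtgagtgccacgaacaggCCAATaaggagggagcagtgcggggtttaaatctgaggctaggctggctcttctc
CENPE (ENSG00000138778, chr4:103198344-103198493, minus strand): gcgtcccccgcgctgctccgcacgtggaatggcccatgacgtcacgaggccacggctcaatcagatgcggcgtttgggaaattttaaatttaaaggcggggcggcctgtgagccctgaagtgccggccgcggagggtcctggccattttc

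In these promoters a CHR word began between positions -65 and -20 from the start in CCNB2, PLK1, CDC20, PRC1, CDCA8 and MKI67, with a CCAAT box upstream of it in each. Among the genes later called higher in J.gamma1, 8 of 12 matched promoters held a CHR word (66.7%), and among those called lower 9 of 12 did (75%), so that genes of both directions held the word.

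The libraries held from 26160492 to 30604977 counts. LDB1 itself was first read as a check of the labels. Levels are given as CPM, counts scaled to a common library total with edgeR's TMM factors within each line. In 6T-CEM LDB1 stood at 102 and 106 CPM for sh-NC and at 35.2 and 33.5 for sh-LDB1. The log2 fold change was -1.60 (SE 0.071, adjusted p = 1.02e-09), by the quasi-likelihood test of edgeR. In J.gamma1 it stood at 63.2 and 61.4 for sh-NC and at 35.0 and 32.3 for sh-LDB1, and fell with a log2 change of -0.89 (SE 0.075, adjusted p = 3.68e-06). The fold loss of LDB1 mRNA was smaller there, by 0.70 on the log2 scale. It began from a lower level: between the sh-NC groups LDB1 was called lower in J.gamma1, with a log2 difference of -0.87 in the fit to all 8 libraries. The sh-LDB1 levels of the lines, each scaled within its line, were close. All 9 T-cell markers (CD3D, CD3E, CD3G, CD247, CD2, CD5, CD7, LCK and PTPRC) were detected above 3 counts in every group. Their summed level, in CPM of the library total, lay between 1659 and 1759 in 6T-CEM sh-NC and between 2239 and 2275 in 6T-CEM sh-LDB1. In J.gamma1 it lay between 2383 and 2411 with sh-NC and between 3324 and 3375 with sh-LDB1, and 5 of the 9 markers were called higher in each line, with 1 called lower in 6T-CEM and 2 in J.gamma1. Myeloid, erythroid and epithelial markers each summed to under 3 CPM in every library, and MS4A1 of the B-cell markers was at or under 3 counts in every group while the B-cell sum, carried by CD79A, reached 80.9. Mitochondrial genes took 2.98% to 4.59% of counts. The part of these shifts in the results below was not tested.

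Most of the 45 genes rose with sh-LDB1 in 6T-CEM. Together they made up 0.900% and 0.901% of all counts with sh-NC, and 1.25% of them in either sh-LDB1 library. All 45 passed the filter on low counts, and 40 were called higher and 1 lower with sh-LDB1 at an adjusted p under 0.05 (edgeR, Benjamini-Hochberg over 16059 genes), while 15.1% of all genes tested were called higher and 16.2% lower. Their median log2 fold change was 0.45, against 0.003 over all genes tested. In J.gamma1 calls went both ways over all genes tested, and so did those of these genes. Their share of counts was 1.05% and 1.03% in the control libraries and 1.06% and 1.02% in the others, and of the 44 that passed the filter 15 were called higher and 13 lower, against 25.0% and 26.5% of all 17215 genes tested. Their median there was 0.01, against -0.0002 over all genes tested. No gene of the list passed a log2 fold change of 1 in either line, a size that 5.13% of genes in 6T-CEM and 13.9% of genes in J.gamma1 passed with an adjusted p under 0.05.

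**Figure D1:**
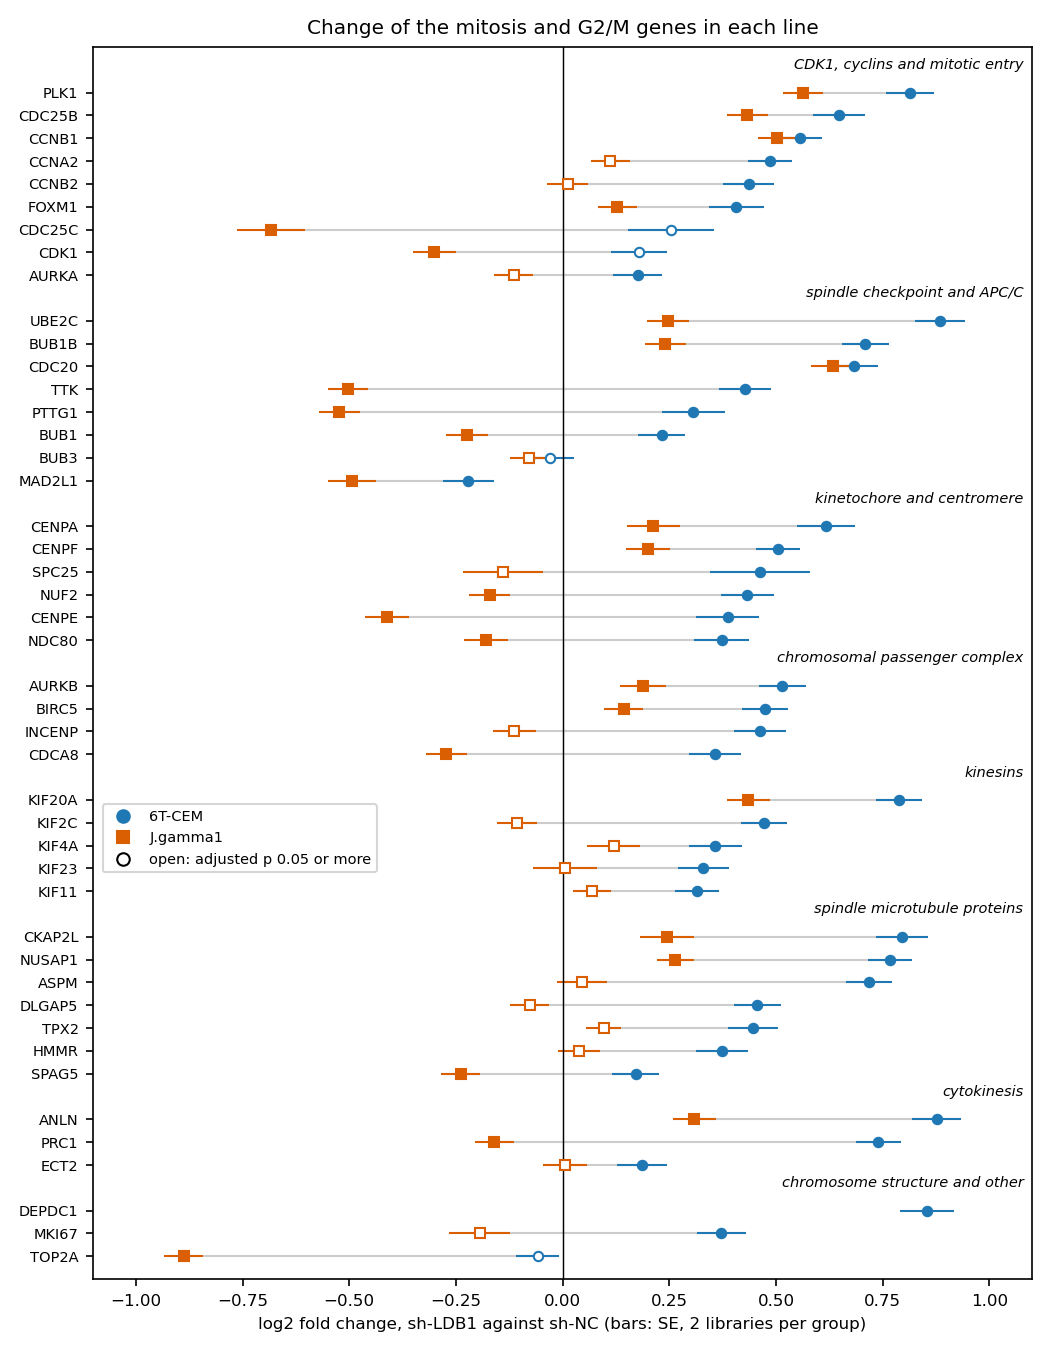
Log2 fold change of each of the 45 genes with sh-LDB1 against sh-NC in 6T-CEM (circles) and J.gamma1 (squares), by class, with bars for the standard error and open symbols where the adjusted p was 0.05 or more. The circles of 42 genes lie above 0, while the squares lie on both sides of it, from -0.89 for TOP2A to 0.63 for CDC20, and DEPDC1 has no square because it was not tested in J.gamma1.

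In the class of CDK1, the cyclins and mitotic entry, 7 of 9 genes were called higher in 6T-CEM, and 4 were called higher and 2 lower in J.gamma1. CCNB1, the cyclin B that activates CDK1 at the onset of mitosis, stood at 273 and 264 CPM for sh-NC and at 392 and 397 for sh-LDB1 in 6T-CEM. J.gamma1 levels were at 246 and 257 for sh-NC and at 356 and 357 for sh-LDB1. Its sh-LDB1 libraries lay above its sh-NC libraries in both lines, and the log2 fold change was 0.56 (SE 0.052, adjusted p = 1.5e-06) in 6T-CEM and 0.50 (SE 0.046, adjusted p = 6.17e-06) in J.gamma1. PLK1, the kinase that acts from mitotic entry to cytokinesis, stood at 215 and 229 for sh-NC and at 377 and 403 for sh-LDB1 in 6T-CEM. Its J.gamma1 levels were at 224 and 233 for sh-NC and at 344 and 331 for sh-LDB1. It too was higher in both lines without overlap, by 0.81 (SE 0.057, adjusted p = 9.05e-08) and 0.56 (SE 0.047, adjusted p = 3.29e-06), and had the largest change of its class in 6T-CEM, a 1.76-fold rise. CDC25B, a phosphatase that activates CDK1, followed with 0.65 and 0.43, called in both lines.

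CDK1 and CDC25C moved otherwise. CDK1, the mitotic kinase itself, stood at 201 and 175 CPM for sh-NC and at 216 and 210.2 for sh-LDB1 in 6T-CEM, where the groups did not overlap and the change of 0.18 (SE 0.066, adjusted p = 0.0548) was not called. In J.gamma1 it stood at 343 and 318 for sh-NC and at 264 and 273 for sh-LDB1 and fell, with a log2 change of -0.30 (SE 0.050, adjusted p = 0.000515). The difference in 6T-CEM was called with DESeq2's Wald test, with library size alone and with upper-quartile factors. CDC25C, the phosphatase of mitotic entry, was the gene of the class with the largest change in J.gamma1, at 37.6 and 39.1 for sh-NC and at 23.4 and 24.3 for sh-LDB1, and it fell with a log2 change of -0.68 (SE 0.080, adjusted p = 4.01e-05). In 6T-CEM it stood at 23.7 and 21.7 for sh-NC and at 25.8 and 28.3 for sh-LDB1, a difference of 0.25 (SE 0.10, adjusted p = 0.0694) that was not called, but was with library size alone (0.29) and with upper-quartile factors (0.28). A filter of at least 10 counts in every library, and a block for replicate number, each gave a call in 6T-CEM for 1 of CDK1 and CDC25C. CDC25C shares 293 exon bases with FAM53C on the other strand, which held more counts than it, and whether counting used the strand is not given in the sources used here.

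AURKA, the Aurora kinase of the spindle poles, stood at 173 and 181 for sh-NC and at 194 and 206 for sh-LDB1 in 6T-CEM and changed by 0.18 (SE 0.057, adjusted p = 0.0291). In J.gamma1 it was at 211 and 205 for sh-NC and at 192 and 192 for sh-LDB1, where the difference of -0.11 (SE 0.046, adjusted p = 0.0591) was not called. FOXM1, a transcription factor of late cell cycle genes, stood at 280.5 and 316 for sh-NC and at 381 and 409.6 for sh-LDB1 in 6T-CEM and rose by 0.41 (SE 0.064, adjusted p = 0.000304). In J.gamma1 it was at 240.0 and 245 for sh-NC and at 270.0 and 260.3 for sh-LDB1, and it rose by 0.13 (SE 0.046, adjusted p = 0.0377). In J.gamma1 its groups lay close together without overlapping, and 782 of its exon bases are shared with ITFG2 on the other strand. CCNA2 and CCNB2, cyclins A and B, rose by 0.49 and 0.44 in 6T-CEM and were not called in J.gamma1, with values of 0.11 and 0.01.

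Of the 8 genes of the spindle checkpoint and APC/C, 6 were called higher and 1 lower in 6T-CEM, and 3 higher and 4 lower in J.gamma1. UBE2C, the ubiquitin-conjugating enzyme that serves APC/C, had the largest change of all 45 genes in 6T-CEM. It stood there at 144 and 136 CPM for sh-NC and at 249 and 267 for sh-LDB1, which made a 1.85-fold rise, or 0.88 (SE 0.059, adjusted p = 6.05e-08) on the log2 scale. In J.gamma1 it stood at 118 and 119 for sh-NC and at 140.3 and 141 for sh-LDB1 and rose by 0.25 (SE 0.049, adjusted p = 0.00164), so that the groups were apart in both lines by unequal steps. CDC20, the activator of APC/C, stood at 191 and 199 for sh-NC and at 300.2 and 325 for sh-LDB1 in 6T-CEM. Libraries of J.gamma1 lay at 246 and 263 for sh-NC and at 385 and 404 for sh-LDB1. It rose by 0.68 (SE 0.058, adjusted p = 5.63e-07) and by 0.63 (SE 0.050, adjusted p = 2.33e-06), the largest rise of the list in J.gamma1. BUB1B, a checkpoint protein that restrains CDC20, rose by 0.71 and 0.24.

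The checkpoint kinases and securin parted between the lines. TTK, the kinase that starts checkpoint signalling at kinetochores, stood at 185 and 182 CPM for sh-NC and at 261 and 234 for sh-LDB1 in 6T-CEM. The J.gamma1 values stood at 266 and 257 for sh-NC and at 188 and 181 for sh-LDB1. It rose by 0.43 (SE 0.061, adjusted p = 8.63e-05) in 6T-CEM and fell in J.gamma1, with a log2 fold change of -0.50 (SE 0.048, adjusted p = 9.04e-06). BUB1, a kinase of the same pathway, stood at 153 and 157 for sh-NC and at 184 and 180.4 for sh-LDB1 in 6T-CEM. For J.gamma1 it was at 259 and 257 for sh-NC and at 229 and 213 for sh-LDB1. It rose by 0.23 (SE 0.055, adjusted p = 0.00503) in 6T-CEM and changed by -0.22 (SE 0.050, adjusted p = 0.00312) in J.gamma1. PTTG1, securin, which holds separase inactive until anaphase, stood at 104 and 89.8 for sh-NC and at 117 and 123 for sh-LDB1 in 6T-CEM. J.gamma1 libraries were at 179 and 182 for sh-NC and at 124 and 127 for sh-LDB1. It changed by 0.31 (SE 0.074, adjusted p = 0.00608) and -0.52 (SE 0.048, adjusted p = 7.31e-06). In each of these genes the 2 groups lay apart in both lines, with sh-LDB1 on top in 6T-CEM and below in J.gamma1. The share of all genes with groups apart was not counted.

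MAD2L1, which inhibits CDC20, and BUB3, which brings BUB1 to kinetochores, were called higher in neither line. MAD2L1, named because it was the single gene called lower in 6T-CEM, stood there at 172 and 173 for sh-NC and at 154 and 142 for sh-LDB1. In J.gamma1 the values were at 184 and 171 for sh-NC and at 129 and 123 for sh-LDB1. The log2 fold changes were -0.22 (SE 0.059, adjusted p = 0.0102) and -0.49 (SE 0.056, adjusted p = 3.08e-05). BUB3 stood at 239.8 and 236 for sh-NC and at 242 and 225 for sh-LDB1 in 6T-CEM. Levels in J.gamma1 stood at 378 and 389 for sh-NC and at 357 and 369.5 for sh-LDB1. Its groups overlapped in 6T-CEM, and its changes of -0.03 (SE 0.056, adjusted p = 0.749) and -0.08 (SE 0.044, adjusted p = 0.164) were called in neither line.

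**Figure D2:**
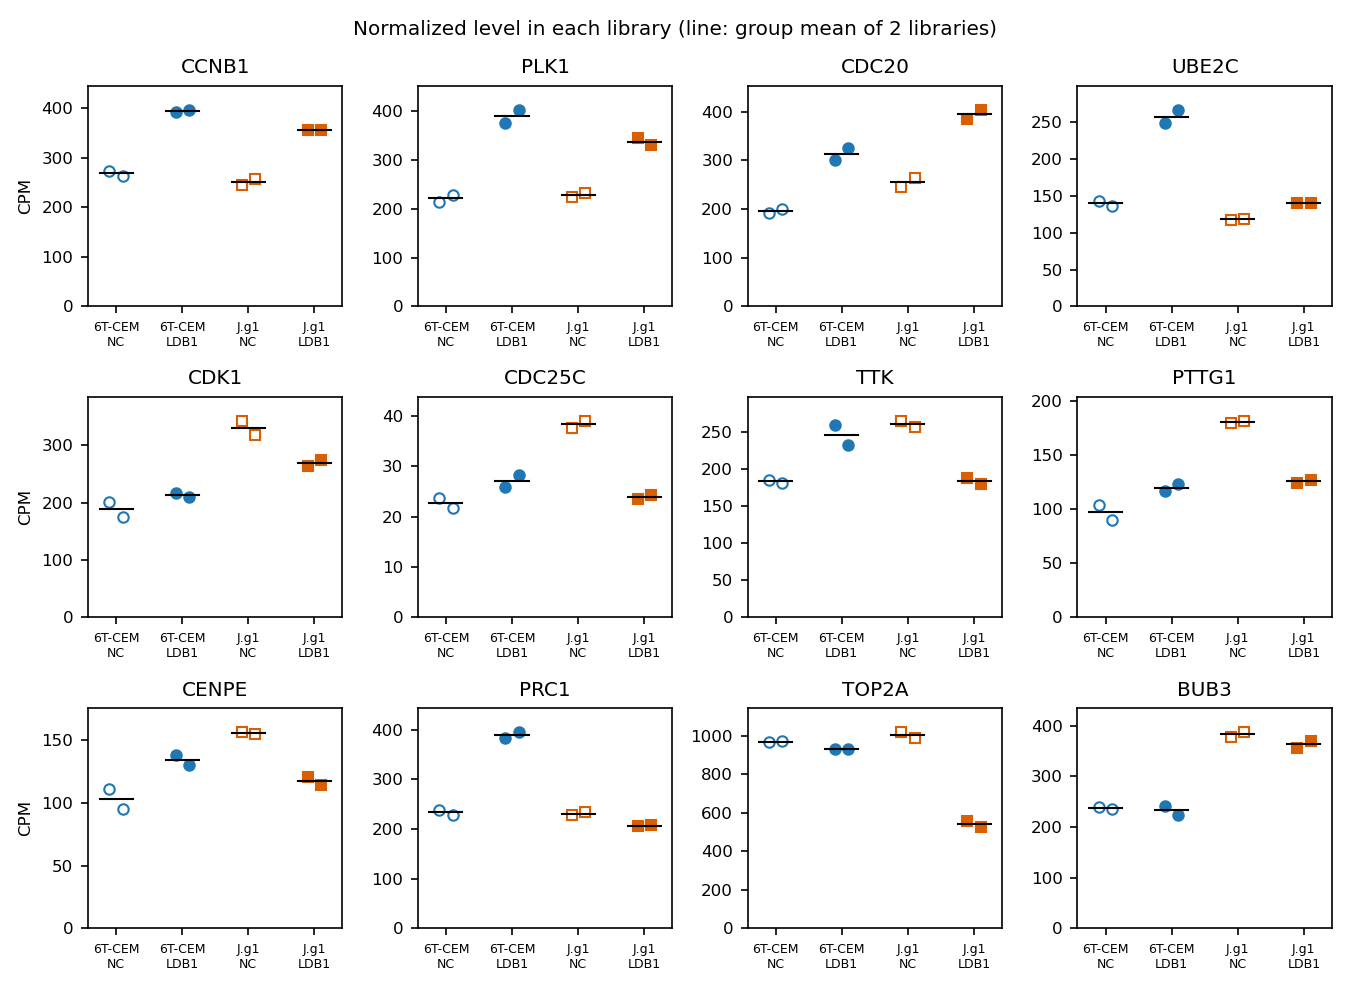
CPM in each library for 12 of the genes, with open symbols for sh-NC, filled symbols for sh-LDB1, circles for 6T-CEM, squares for J.gamma1 and a line at the mean of each group of 2; every axis starts at 0. CCNB1, PLK1, CDC20 and UBE2C are higher with sh-LDB1 in both lines, TTK, PTTG1, CENPE and PRC1 are higher in 6T-CEM and lower in J.gamma1, and TOP2A falls from 1021 and 986 to 558 and 527 in J.gamma1.

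All 6 kinetochore and centromere genes were called higher in 6T-CEM, with changes from 0.37 for NDC80 to 0.62 for CENPA. In J.gamma1, 2 were called higher and 3 lower. CENPA, the histone variant that marks centromeres, stood at 51.6 and 52.6 CPM for sh-NC and at 79.5 and 80.4 for sh-LDB1 in 6T-CEM. J.gamma1 levels were at 71.5 and 66.9 for sh-NC and at 80.3 and 80.0 for sh-LDB1. It rose in both, by 0.62 (SE 0.068, adjusted p = 7.75e-06) and 0.21 (SE 0.062, adjusted p = 0.0147). CENPF, a large protein of the outer kinetochore, rose by 0.51 and 0.20. CENPE, the kinetochore motor that brings chromosomes to the spindle middle, stood at 111 and 94.9 for sh-NC and at 138 and 130.3 for sh-LDB1 in 6T-CEM. Its J.gamma1 levels were at 157 and 155 for sh-NC and at 120.3 and 114 for sh-LDB1. It rose by 0.39 (SE 0.075, adjusted p = 0.00154) in the first and changed by -0.41 (SE 0.052, adjusted p = 6.84e-05) in the second. Of the NDC80 complex, which grips microtubules, NUF2 and NDC80 moved in the directions of CENPE. NUF2 stood at 89.6 and 86.2 for sh-NC and at 118 and 119.7 for sh-LDB1 in 6T-CEM. Libraries of J.gamma1 lay at 169 and 175 for sh-NC and at 155 and 151 for sh-LDB1. It rose by 0.43 (SE 0.061, adjusted p = 8.51e-05) in 6T-CEM and changed by -0.17 (SE 0.049, adjusted p = 0.0128) in J.gamma1. NDC80 stood at 84.6 and 78.1 for sh-NC and at 106 and 105 for sh-LDB1 in 6T-CEM. The J.gamma1 values stood at 117 and 120.4 for sh-NC and at 106 and 103 for sh-LDB1. It rose by 0.37 (SE 0.065, adjusted p = 0.00051) in 6T-CEM and changed by -0.18 (SE 0.052, adjusted p = 0.0145) in J.gamma1. SPC25, the third of the complex on the list, rose by 0.46 in 6T-CEM and was not called in J.gamma1 at -0.14. None of these genes had overlapping groups in either line, and SPC25 in J.gamma1 was apart without being called. In 6T-CEM the groups lay apart for 44 genes of the whole list, among them CDK1, CDC25C and TOP2A, which were not called. How often groups lie apart among all genes was not counted, so lying apart was not taken as a call.

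The chromosomal passenger complex corrects faulty attachments through its kinase AURKB. All 4 of its genes were called higher in 6T-CEM, and in J.gamma1 2 were called higher and 1 lower. AURKB stood at 158 and 159 CPM for sh-NC and at 222 and 231 for sh-LDB1 in 6T-CEM. For J.gamma1 it was at 154 and 161 for sh-NC and at 173 and 185 for sh-LDB1. It rose by 0.51 (SE 0.055, adjusted p = 5.45e-06) and 0.19 (SE 0.053, adjusted p = 0.0119). BIRC5, survivin, rose beside it by 0.47 and 0.14. CDCA8, borealin, stood at 125 and 128 for sh-NC and at 156 and 168 for sh-LDB1 in 6T-CEM. J.gamma1 libraries were at 187 and 190.4 for sh-NC and at 153 and 159 for sh-LDB1. It rose by 0.36 (SE 0.061, adjusted p = 0.000416) in 6T-CEM and fell in J.gamma1, with -0.27 (SE 0.048, adjusted p = 0.000778), and INCENP, the scaffold of the complex, rose by 0.46 in 6T-CEM and was at -0.11, not called, in J.gamma1.

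The 5 mitotic kinesins were all called higher in 6T-CEM, and 1 of them, KIF20A, in J.gamma1. KIF20A, a motor of the central spindle, stood at 134 and 135 CPM for sh-NC and at 231 and 234 for sh-LDB1 in 6T-CEM. Levels in J.gamma1 stood at 103 and 101 for sh-NC and at 139 and 137 for sh-LDB1. Its rises of 0.79 (SE 0.054, adjusted p = 7.79e-08) and 0.44 (SE 0.051, adjusted p = 3.8e-05) were the largest of the class in both lines, and it shares 132 exon bases with BRD8 and 74 with CDC23 on the other strand. KIF11, the motor that pushes spindle poles apart, stood at 337 and 328 for sh-NC and at 411 and 416 for sh-LDB1 in 6T-CEM. J.gamma1 levels were at 280.5 and 272 for sh-NC and at 289 and 290.1 for sh-LDB1. Its groups were apart in both lines, and its change was called in 6T-CEM, at 0.32 (SE 0.051, adjusted p = 0.00027), and not in J.gamma1, at 0.07 (SE 0.044, adjusted p = 0.228). KIF2C, which takes microtubules apart at centromeres, KIF4A, which moves along chromosome arms, and KIF23, a part of centralspindlin, rose by 0.47, 0.36 and 0.33 in 6T-CEM.

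All 7 genes of proteins that bind or organize spindle microtubules were called higher in 6T-CEM, and in J.gamma1 2 were called higher and 1 lower. CKAP2L stood at 88.6 and 84.1 CPM for sh-NC and at 150.4 and 149 for sh-LDB1 in 6T-CEM. Its J.gamma1 levels were at 128 and 119 for sh-NC and at 154 and 139 for sh-LDB1. It rose by 0.80 (SE 0.061, adjusted p = 2.02e-07) and 0.24 (SE 0.063, adjusted p = 0.00746). NUSAP1 stood at 316 and 325 for sh-NC and at 543 and 548 for sh-LDB1 in 6T-CEM. Libraries of J.gamma1 lay at 323 and 327 for sh-NC and at 395 and 386 for sh-LDB1. It rose by 0.77 (SE 0.051, adjusted p = 5.79e-08) and 0.26 (SE 0.043, adjusted p = 0.000429). These 2 had the largest rises of the class in the 2 lines, and NUSAP1 shares 195 exon bases with OIP5-AS1 and 2938 with ENSG00000285920, which is not analysed here, on its own strand, and 352 with OIP5 on the other. TPX2, which activates AURKA and nucleates microtubules near chromosomes, stood at 608 and 650.5 for sh-NC and at 820.4 and 895 for sh-LDB1 in 6T-CEM. The J.gamma1 values stood at 605 and 597 for sh-NC and at 637 and 649 for sh-LDB1. It rose by 0.45 (SE 0.058, adjusted p = 3.89e-05) in 6T-CEM, and its value of 0.10 (SE 0.041, adjusted p = 0.0704) in J.gamma1 was not called although the groups did not overlap. SPAG5, astrin, stood at 142 and 145 for sh-NC and at 162 and 161 for sh-LDB1 in 6T-CEM. For J.gamma1 it was at 281 and 291 for sh-NC and at 247 and 238 for sh-LDB1. The changes were opposite, 0.17 (SE 0.056, adjusted p = 0.0307) in 6T-CEM and -0.24 (SE 0.046, adjusted p = 0.00135) in J.gamma1. ASPM, DLGAP5 and HMMR, further proteins of the spindle and its poles, rose by 0.72, 0.46 and 0.37 in 6T-CEM and stood at 0.05, -0.08 and 0.04, none called, in J.gamma1.

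Of the 3 genes of cytokinesis, all were called higher in 6T-CEM, and they parted in J.gamma1. ANLN, anillin of the contractile ring, stood at 101 and 101 CPM for sh-NC and at 183 and 188 for sh-LDB1 in 6T-CEM. J.gamma1 libraries were at 153 and 144 for sh-NC and at 184 and 184 for sh-LDB1. It rose by 0.88 (SE 0.058, adjusted p = 5.07e-08) and 0.31 (SE 0.050, adjusted p = 0.000435), the largest change of the class in both lines. PRC1, which bundles the microtubules of the central spindle, stood at 238 and 229 for sh-NC and at 384 and 396 for sh-LDB1 in 6T-CEM. Levels in J.gamma1 stood at 229 and 234 for sh-NC and at 206 and 207 for sh-LDB1. Its 1.67-fold rise in 6T-CEM, 0.74 (SE 0.053, adjusted p = 1.1e-07) on the log2 scale, stood against a log2 fold change of -0.16 (SE 0.045, adjusted p = 0.0127) in J.gamma1. PRC1 shares 3181 exon bases with ENSG00000284946, which is not analysed here, on its own strand, and 1892 with PRC1-AS1, which held 5 to 22 counts, on the other. ECT2, the exchange factor that activates RhoA at the division plane, changed by 0.19 in 6T-CEM, which was called, and by 0.01 in J.gamma1, where its groups overlapped.

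TOP2A, the topoisomerase that untangles sister chromatids, had the largest change of the list in J.gamma1 and none that was called in 6T-CEM. It stood at 1021 and 986 CPM for sh-NC and at 558 and 527 for sh-LDB1 in J.gamma1, and its log2 change was -0.89 (SE 0.045, adjusted p = 8.84e-08). In 6T-CEM the levels were at 966 and 972 for sh-NC and at 930.3 and 931 for sh-LDB1, a change of -0.06 (SE 0.050, adjusted p = 0.420). In J.gamma1 its sh-LDB1 libraries dropped to 0.54 of the control level. MKI67, the Ki-67 protein that coats mitotic chromosomes, stood at 615 and 664 for sh-NC and at 797 and 858 for sh-LDB1 in 6T-CEM and rose by 0.37 (SE 0.057, adjusted p = 0.000184). In J.gamma1 it stood at 594 and 595 for sh-NC and at 562 and 477 for sh-LDB1, and the difference of -0.19 (SE 0.072, adjusted p = 0.0562) was not called, although DESeq2's Wald test called it. DEPDC1 stood at 83.3 and 79.5 for sh-NC and at 151 and 143 for sh-LDB1 in 6T-CEM and rose by 0.85 (SE 0.063, adjusted p = 1.42e-07). In J.gamma1 it had 0 counts in 3 libraries and 5 in sh-LDB1 replicate 2, too few to be tested within that line.

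The log2 fold change was higher in 6T-CEM than in J.gamma1 for all 44 genes tested in both lines. The test of the difference itself, as an interaction in a fit to all 8 libraries, called 38 of 45 genes, each with a lower change in J.gamma1, and 0 with a higher one, while 12.0% of all 18552 genes were called higher and 12.4% lower. For the genes not called here, the change in J.gamma1 minus that in 6T-CEM was -0.05 (SE 0.062, adjusted p = 0.600) for CCNB1, -0.05 (SE 0.077, adjusted p = 0.713) for CDC20 and -0.05 (SE 0.069, adjusted p = 0.667) for BUB3. It was -0.18 (SE 0.079, adjusted p = 0.121) for ECT2, -0.24 (SE 0.084, adjusted p = 0.0568) for KIF4A and -0.22 (SE 0.078, adjusted p = 0.0634) for CDC25B. No estimate is given for DEPDC1, which was near 0 counts in J.gamma1. Without 6T-CEM sh-LDB1 replicate 1 the estimate for BUB3, and without 6T-CEM sh-LDB1 replicate 2 that for CDC20, lay above 0. The largest differences were -0.94 (SE 0.12, adjusted p = 0.000219) for CDC25C, -0.93 (SE 0.080, adjusted p = 9.61e-06) for TTK and -0.90 (SE 0.062, adjusted p = 2.08e-06) for PRC1. As LDB1 mRNA also fell by a larger fold in 6T-CEM, from a higher sh-NC level, the depth of the knockdown and the cell line cannot be told apart here.

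The calls fell into few patterns. Both lines called 15 genes higher. A further 9 were called higher in 6T-CEM and lower in J.gamma1 (BUB1, TTK, PTTG1, CENPE, NUF2, NDC80, CDCA8, SPAG5 and PRC1), and 15 were called higher in 6T-CEM alone. Another 3 were called lower in J.gamma1 alone (CDK1, CDC25C and TOP2A). MAD2L1 was called lower in both, and BUB3 in neither. DEPDC1 was called higher in 6T-CEM and not tested in J.gamma1. Of all genes tested, 15.1% were called higher and 16.2% lower in 6T-CEM, and 25.0% and 26.5% in J.gamma1. The share of all genes with each joint pattern was not counted, so whether these patterns are unusual was not tested. Across the 44 genes the log2 fold changes of the lines correlated with r = 0.711 (Pearson) and rho = 0.767 (Spearman). Across all 14902 genes that both lines tested, r was 0.468 and rho 0.446. These describe genes, which are not independent replicates.

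**Figure D3:**
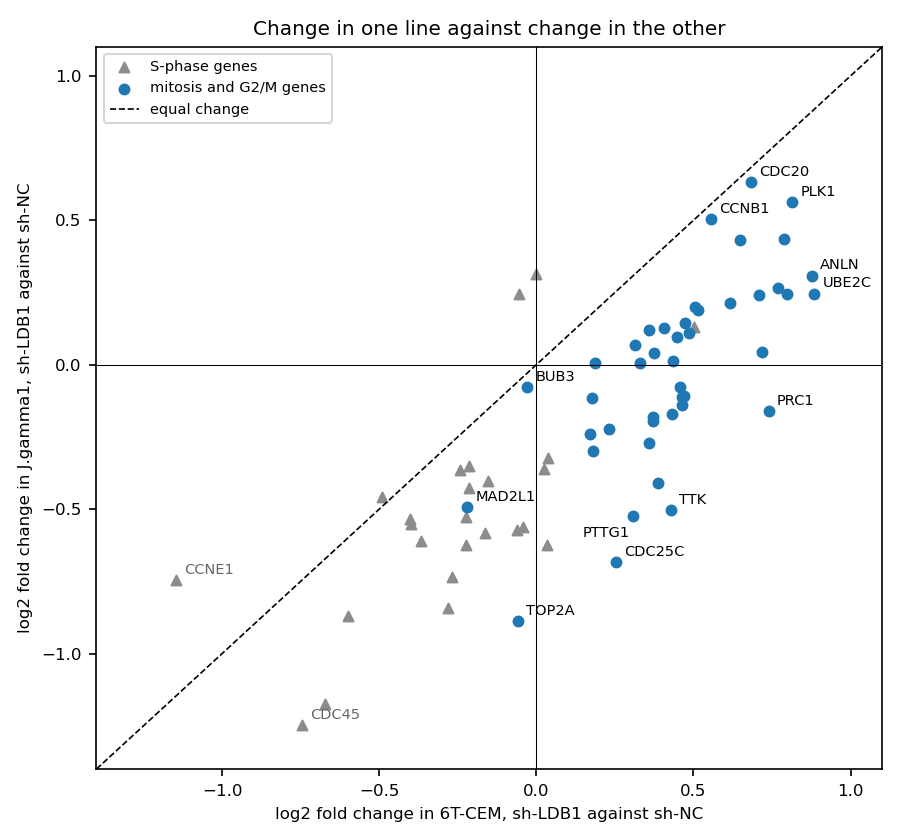
Log2 fold change with sh-LDB1 against sh-NC in 6T-CEM (horizontal) and in J.gamma1 (vertical) for the 44 mitosis and G2/M genes tested in both lines (circles) and 25 S-phase genes (triangles), with a dashed line for equal change. All circles lie below the dashed line, CDC20 and CCNB1 closest to it among the genes that rose, and most triangles lie in the lower left.

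Some calls were lost in fits that left out 1 library and so had fewer samples, and the value in such a fit stands beside each loss. With 1 library left out, the remaining one of its group was taken to vary as the other libraries do. Of 41 genes called in 6T-CEM, 35 were called in every such fit. AURKA was lost without sh-NC replicate 1, sh-NC replicate 2 or sh-LDB1 replicate 2 (log2 fold changes from 0.13 to 0.21, adjusted p from 0.0627 to 0.187), and ECT2 without sh-NC replicate 1, sh-NC replicate 2 or sh-LDB1 replicate 1 (log2 fold changes from 0.12 to 0.19, adjusted p from 0.118 to 0.210). The call was lost for MAD2L1 without sh-NC replicate 1, sh-NC replicate 2 or sh-LDB1 replicate 2 (log2 fold changes from -0.22 to -0.17, adjusted p from 0.0674 to 0.0973). PTTG1 was lost without sh-NC replicate 2 or sh-LDB1 replicate 2 (log2 fold changes from 0.21 to 0.27, adjusted p from 0.0617 to 0.0852), and SPC25 without sh-NC replicate 2 or sh-LDB1 replicate 2 (log2 fold changes from 0.34 to 0.44, adjusted p from 0.0547 to 0.0977). The call was lost for SPAG5 without sh-NC replicate 1, sh-NC replicate 2, sh-LDB1 replicate 1 or sh-LDB1 replicate 2 (log2 fold changes from 0.16 to 0.19, adjusted p from 0.0791 to 0.137). Of 28 genes called in J.gamma1, 19 were called in every such fit. FOXM1 was lost without sh-NC replicate 1, sh-NC replicate 2 or sh-LDB1 replicate 1 (log2 fold changes from 0.11 to 0.14, adjusted p from 0.0858 to 0.188), and BIRC5 without sh-NC replicate 1, sh-NC replicate 2 or sh-LDB1 replicate 2 (log2 fold changes from 0.12 to 0.15, adjusted p from 0.0671 to 0.121). So was AURKB without sh-NC replicate 1 or sh-LDB1 replicate 2 (log2 fold changes from 0.14 to 0.15, adjusted p from 0.0799 to 0.0942). CENPA was lost without sh-NC replicate 2 (log2 fold change 0.16, adjusted p = 0.112), and CENPF without sh-LDB1 replicate 1 (log2 fold change 0.14, adjusted p = 0.0699). Likewise lost was CKAP2L without sh-LDB1 replicate 1 (log2 fold change 0.17, adjusted p = 0.0607). NUF2 was lost without sh-NC replicate 2 or sh-LDB1 replicate 2 (log2 fold change -0.15 in each fit, adjusted p from 0.0704 to 0.0804), and NDC80 without sh-NC replicate 2 or sh-LDB1 replicate 2 (log2 fold changes from -0.16 to -0.15, adjusted p from 0.0793 to 0.0917). So was PRC1 without sh-NC replicate 2 or sh-LDB1 replicate 1 (log2 fold change -0.15 in each fit, adjusted p from 0.0586 to 0.0747). These 3 were also lost with upper-quartile factors. Without the filter on low counts, AURKA, ECT2 and SPAG5 were lost in 6T-CEM and FOXM1 in J.gamma1. BUB1, TTK, CENPE and CDCA8 therefore kept opposite calls in the lines whichever library was left out.

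Of the 38 differences between the lines, 33 were called in every fit without 1 library. PLK1 was lost without 6T-CEM sh-NC replicate 1, 6T-CEM sh-LDB1 replicate 2, J.gamma1 sh-NC replicate 2 or J.gamma1 sh-LDB1 replicate 2 (log2 differences from -0.23 to -0.20, adjusted p from 0.0832 to 0.117) and FOXM1 without 6T-CEM sh-NC replicate 1, 6T-CEM sh-LDB1 replicate 2, J.gamma1 sh-NC replicate 2 or J.gamma1 sh-LDB1 replicate 2 (log2 differences from -0.27 to -0.19, adjusted p from 0.0790 to 0.123). KIF23 was lost without 6T-CEM sh-NC replicate 1, 6T-CEM sh-NC replicate 2, 6T-CEM sh-LDB1 replicate 1, 6T-CEM sh-LDB1 replicate 2, J.gamma1 sh-NC replicate 1 or J.gamma1 sh-LDB1 replicate 2 (log2 differences from -0.35 to -0.22, adjusted p from 0.0507 to 0.114). MAD2L1 was lost without 6T-CEM sh-NC replicate 1, 6T-CEM sh-NC replicate 2, 6T-CEM sh-LDB1 replicate 1, J.gamma1 sh-NC replicate 1 or J.gamma1 sh-LDB1 replicate 2 (log2 differences from -0.27 to -0.21, adjusted p from 0.0697 to 0.108), and SPC25 without 6T-CEM sh-NC replicate 2 or J.gamma1 sh-LDB1 replicate 1 (log2 differences from -0.53 to -0.47, adjusted p from 0.0554 to 0.0578). The differences for PLK1 and FOXM1 were not called with upper-quartile factors either.

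The lines also started from different levels. Between the sh-NC groups, 23 of the 45 genes were called higher in J.gamma1 and 13 lower, while 34.6% of all genes tested were called higher and 31.1% lower, with a median log2 difference of 0.12 over the list and 0.045 over all genes. Higher in J.gamma1 were SPAG5 at 0.86 (SE 0.046, adjusted p = 7.75e-09), NUF2 at 0.83 (SE 0.050, adjusted p = 2.13e-08), PTTG1 at 0.76 (SE 0.066, adjusted p = 6.88e-07) and CDK1 at 0.67 (SE 0.065, adjusted p = 2.06e-06). Lower were KIF20A at -0.54 (SE 0.045, adjusted p = 4.76e-07) and FOXM1 at -0.44 (SE 0.058, adjusted p = 2.93e-05). With library size alone 29 were higher and 6 lower, with BUB1B turned to higher at 0.13 and NUSAP1 to 0.026, not called, and without J.gamma1 sh-NC replicate 1 there were 8 lower. DEPDC1 was the gene that the lines did not share: against a floor of 3 counts per library in J.gamma1 sh-NC, its level in 6T-CEM sh-NC was at least 899-fold higher. Per kilobase of exon, TPX2 had the highest level of the list in both control groups, 175 CPM per kilobase in 6T-CEM and 167 in J.gamma1, and TOP2A came next with 152 and 157. CDC25C was lowest in 6T-CEM, at 6.82, and lowest but for DEPDC1 in J.gamma1, at 11.5.

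Other genes of the cell cycle give the setting. Of 34 further mitotic genes outside the list, 18 were called higher and 2 lower in 6T-CEM, with a median log2 fold change of 0.26, and 3 higher and 17 lower in J.gamma1, with a median of -0.19. CDC25A, a phosphatase active from the start of S phase, had the largest called change of that list in both lines, -0.86 (SE 0.065, adjusted p = 1.74e-07) and -1.42 (SE 0.058, adjusted p = 1.87e-08). The test of the difference called 24 of the 34 lower in J.gamma1 and 0 higher. Genes of S phase went the other way from the 45 genes in 6T-CEM: of 25, 1 was called higher and 16 lower, with a median of -0.23, and 10 were called lower without 6T-CEM sh-NC replicate 1. In J.gamma1 2 were called higher and 22 lower, with a median of -0.55. CCNE1, a cyclin of the entry into S phase, stood at 13.4 and 14.6 CPM for sh-NC and at 6.13 and 6.50 for sh-LDB1 in 6T-CEM, and its log2 change was -1.15 (SE 0.15, adjusted p = 4.59e-05). CDC45, a part of the replicative helicase, stood at 92.5 and 97.5 for sh-NC and at 41.0 and 39.1 for sh-LDB1 in J.gamma1, where the change was -1.25 (SE 0.067, adjusted p = 1.22e-07). Both had the largest called change of the S-phase list in the line given.

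**Figure D4:**
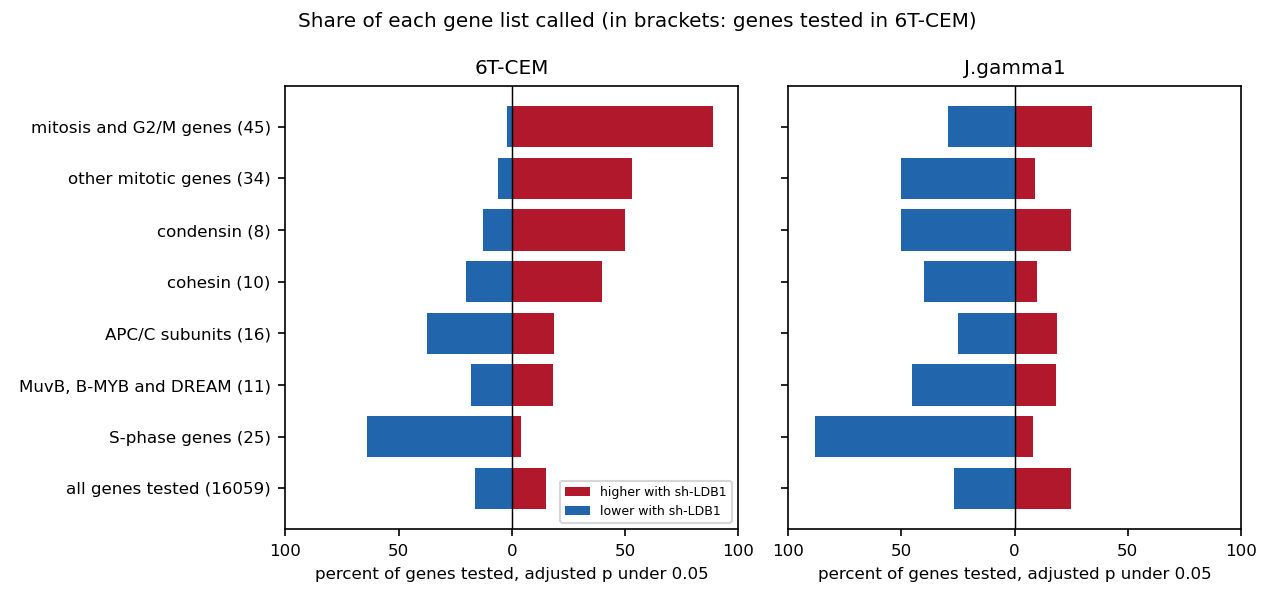
Percent of the genes tested in each list that were called higher (right) or lower (left) with sh-LDB1 at an adjusted p under 0.05, in 6T-CEM and J.gamma1, with all genes tested at the bottom; numbers in brackets are the genes tested in 6T-CEM. In 6T-CEM the bar of the 45 mitosis and G2/M genes points right, with 40 higher and 1 lower, and that of the S-phase genes left, and in J.gamma1 the first has 15 higher and 13 lower of 44.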

How the data were processed

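RNA from 8 libraries of 6T-CEM and J.gamma1 with sh-NC or sh-LDB1 was sequenced. The authors used hg38, HISAT2 2.2.0 for alignment and StringTie for quantification (submitters' processing notes). They deposited raw counts of each gene as whole numbers, in 1 table per line. The annotation release, the use of strand and the treatment of reads that match several genes are not given in the sources used here, so that genes which overlap others are uncertain. The overlaps named above are not all. CENPA shares 138 exon bases with SLC35F6 on its own strand, and CCNA2 shares 254 with EXOSC9 on the other. Symbols, exons and lengths came from GENCODE release 44 for GRCh38, and 56105 of 64252 identifiers were matched to a symbol. Genes without one held 2.11% to 2.27% of a library's counts.

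Counts were tested with edgeR 4.0.16 (R 4.3.3) by the quasi-likelihood test (robust fit, TMM, filterByExpr), two-sided, sh-LDB1 against sh-NC in each line by itself, and p-values were adjusted by Benjamini-Hochberg over every gene that passed the filter. Calls needed an adjusted p under 0.05. The difference of the changes and that of the sh-NC groups were tested in a fit to all 8 libraries. Between libraries of a group the coefficient of variation was 9.68% (6T-CEM) and 9.16% (J.gamma1). Totals of 26160492 to 30604977 counts put nearly every gene of the list far above counting noise. Each standard error is the log2 fold change over the root of its F statistic. Steps were tested on simulated counts. Of simulated log2 changes of 0.5, edgeR recovered 22 of 59 in 6T-CEM, 34 of 68 in J.gamma1 and 5 of 58 for the difference between the lines. A change of about that size that was not called is therefore not shown to be absent.

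The members and lists were chosen with earlier results of these data known, and lists are described by counts and medians without a test of their own. Values in every library are given for CDK1, CCNB1, PLK1, AURKA, FOXM1, CDC20, BUB1, BUB3, CENPE, AURKB, KIF11, TPX2, PRC1, TOP2A and MKI67, for the gene of each class with the largest change in each line, and for genes past a log2 fold change of 1 or called in opposite directions in the lines. Of other lists, the gene with the largest called change in each line is named, and MYBL2 and LIN54. Alternatives were DESeq2 1.42.0 (its size factors, and its Wald test), library size alone, upper-quartile factors, other filters on low counts, stricter thresholds, a block for replicate number, a fit to all libraries and fits without 1 library. Python 3.11.15 with pandas 2.3.3 and matplotlib 3.10.9 made tables and figures.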

Additional observations from a re-analysis of the deposited data

Results flagged for a closer look

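The change with sh-LDB1 differed between J.gamma1 and 6T-CEM, by the interaction test in the fit to all 8 libraries (edgeR's quasi-likelihood test, adjusted p under 0.05), for LDB1, for 38 of the 45 genes and for some of the other genes named here. Values are the log2 change in J.gamma1 minus that in 6T-CEM. LDB1 had 0.70, as it fell less in J.gamma1, and all 38 genes had values below 0. In the class of CDK1, the cyclins and mitotic entry the values were -0.48 for CDK1, -0.43 for CCNB2, -0.38 for CCNA2, -0.94 for CDC25C, -0.25 for PLK1, -0.29 for AURKA and -0.28 for FOXM1. Genes of the spindle checkpoint and APC/C had -0.46 for BUB1, -0.47 for BUB1B, -0.28 for MAD2L1, -0.93 for TTK, -0.64 for UBE2C and -0.83 for PTTG1. The kinetochore and centromere genes had -0.41 for CENPA, -0.80 for CENPE, -0.31 for CENPF, -0.61 for NUF2, -0.55 for NDC80 and -0.61 for SPC25. In the chromosomal passenger complex they were -0.33 for AURKB, -0.58 for INCENP, -0.33 for BIRC5 and -0.63 for CDCA8. Among the kinesins they were -0.25 for KIF11, -0.35 for KIF20A, -0.33 for KIF23 and -0.58 for KIF2C. Spindle microtubule proteins had -0.35 for TPX2, -0.51 for NUSAP1, -0.41 for SPAG5, -0.34 for HMMR, -0.54 for DLGAP5, -0.67 for ASPM and -0.55 for CKAP2L. For cytokinesis they were -0.90 for PRC1 and -0.57 for ANLN. The remaining genes had -0.83 for TOP2A and -0.57 for MKI67. Of the genes outside the list, the values were -0.56 for CDC25A, -0.50 for CDC45, -0.29 for NCAPD3, -0.76 for SGO1, -0.53 for LIN54, 0.79 for E2F5 and -0.37 for RBBP4. The call was lost for NCAPD3 without 6T-CEM sh-NC replicate 2 (log2 difference -0.27, adjusted p = 0.0506) and for LIN54 without J.gamma1 sh-LDB1 replicate 1 (log2 difference -0.49, adjusted p = 0.0507). With 2 libraries per group no library could be examined as an outlier. The fall of LDB1 and the level of these genes in the sh-NC groups also differed between the lines, and their part in these differences was not tested.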

How the results depend on the processing

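With normalization, filter or test changed, between 38 and 43 of the 45 genes were called in 6T-CEM, between 27 and 31 in J.gamma1 and between 36 and 40 for the difference between the lines, in which no such change gave a gene called higher in J.gamma1. A log2 fold change beyond 1 left 0 genes in 6T-CEM, 0 in J.gamma1 and 0 for the difference, and between the sh-NC groups 1 gene, DEPDC1, lower in J.gamma1, and 0 higher. An adjusted p under 0.01 left 0 genes lower in 6T-CEM. The balance of directions in J.gamma1, 15 higher and 13 lower, depended on the scaling more than the total did. Upper-quartile factors gave 19 higher and 10 lower. Library size alone gave 17 higher and 13 lower, as did the filter of at least 10 counts in every library. DESeq2 size factors left 15 higher and 13 lower. The median log2 fold change moved with library size alone to 0.49 in 6T-CEM and 0.038 in J.gamma1, and with upper-quartile factors to 0.48 and 0.058. Fits without 1 library called 0 to 1 gene lower in 6T-CEM, where MAD2L1 was the gene, 0 to 1 gene with a higher change in J.gamma1, where DEPDC1 was the gene, without J.gamma1 sh-LDB1 replicate 1, and 8 to 13 genes lower in J.gamma1 between the sh-NC groups, with 8 without J.gamma1 sh-NC replicate 1. The J.gamma1 median ran from -0.023 (without J.gamma1 sh-NC replicate 2) to 0.034, on both sides of 0. With library size alone, 6 genes in place of 13 were lower in J.gamma1 between the sh-NC groups, BUB1B was called higher at 0.13 and NUSAP1 turned to 0.026, as that scaling moved the median of all genes there from 0.045 to 0.19. The cause of the other changes was not tested. In the other lists, counts of up to 5 genes moved by more than 1.5 times under some settings: genes of MuvB, B-MYB and DREAM called lower in J.gamma1 ran from 2 to 5, condensin genes called higher there from 0 to 2, cohesin genes called lower in 6T-CEM from 0 to 2, and APC/C genes with a higher change in J.gamma1 from 2 to 5. Same-numbered libraries did not deviate together, as their correlations were -0.053 (6T-CEM) and -0.094 (J.gamma1), so the numbers were not taken as pairs. With the replicate number as a block, 42 genes were called in 6T-CEM, 31 in J.gamma1, 40 for the difference and 31 between the sh-NC groups. Groups of 2 libraries limit all these values.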

Other observations

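Other parts of the machinery of division were counted in the same way, by edgeR's quasi-likelihood test in each line. Of all genes tested, 15.1% were called higher and 16.2% lower in 6T-CEM, 25.0% and 26.5% in J.gamma1, and 12.4% had a change called lower in J.gamma1 than in 6T-CEM. Of 16 subunits and regulators of APC/C, 3 were called higher and 6 lower in 6T-CEM (median log2 fold change -0.08), and 3 higher and 4 lower in J.gamma1 (median 0.01). ANAPC7, an APC/C subunit, stood at 91.1 and 91.3 CPM for sh-NC and at 47.9 and 45.1 for sh-LDB1 in 6T-CEM and changed by -0.97 (SE 0.069, adjusted p = 1.03e-07), the largest called change of that list there. CDC27, another subunit, stood at 284 and 266 for sh-NC and at 149 and 136 for sh-LDB1 in J.gamma1, with -0.95 (SE 0.057, adjusted p = 3.15e-07). Both subunits had their sh-LDB1 libraries well below their sh-NC libraries. They were called lower in the other line too, ANAPC7 with -0.68 in J.gamma1 and CDC27 with -0.82 in 6T-CEM.

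Of 8 condensin genes, whose products compact chromosomes, 4 were called higher and 1 lower in 6T-CEM, and 2 higher and 4 lower in J.gamma1, and the change was called lower in J.gamma1 for 7 of the 8. NCAPD3 had the largest called change in both lines, -0.46 (SE 0.060, adjusted p = 3.5e-05) and -0.76 (SE 0.046, adjusted p = 3.08e-07). Of 10 genes of cohesin and its regulators, which hold sister chromatids together, 4 were called higher and 2 lower in 6T-CEM, and 1 higher and 4 lower in J.gamma1. SGO1, which protects cohesin at centromeres, rose by 0.61 (SE 0.077, adjusted p = 2.76e-05) in 6T-CEM, and STAG1, a cohesin subunit, by 0.49 (SE 0.070, adjusted p = 0.000229) in J.gamma1. STAG1 was also called higher in 6T-CEM, at 0.41, while SGO1 was not called in J.gamma1, at -0.14.

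Of 11 genes of MuvB, B-MYB and DREAM, the complexes that bind late cell cycle promoters, 2 were called higher and 2 lower in 6T-CEM, and 2 higher and 5 lower in J.gamma1. LIN54, the subunit that binds the CHR, stood at 53.1 and 53.6 CPM for sh-NC and at 68.2 and 60.7 for sh-LDB1 in 6T-CEM. J.gamma1 levels were at 80.3 and 66.2 for sh-NC and at 59.4 and 63.3 for sh-LDB1. Its changes of 0.27 (SE 0.077, adjusted p = 0.0134) and -0.26 (SE 0.092, adjusted p = 0.0423) were called in opposite directions. The call for LIN54 was lost in 6T-CEM without sh-NC replicate 1, sh-NC replicate 2 or sh-LDB1 replicate 1 (log2 fold changes from 0.19 to 0.28, adjusted p from 0.0818 to 0.144), and in J.gamma1 without sh-NC replicate 1, sh-LDB1 replicate 1 or sh-LDB1 replicate 2 (log2 fold changes from -0.30 to -0.11, adjusted p from 0.0838 to 0.325), where the value was -0.11 without sh-NC replicate 1. MYBL2, which encodes B-MYB, stood at 551 and 557 for sh-NC and at 578 and 614 for sh-LDB1 in 6T-CEM. Its J.gamma1 levels were at 279 and 270.2 for sh-NC and at 267 and 269 for sh-LDB1. Its changes of 0.11 (SE 0.052, adjusted p = 0.147) and -0.03 (SE 0.045, adjusted p = 0.555) were not called. E2F5 had the largest called change of the list in 6T-CEM, -0.48 (SE 0.12, adjusted p = 0.00776), and RBBP4 in J.gamma1, -0.56 (SE 0.042, adjusted p = 1.51e-06). The call for E2F5 was lost without 6T-CEM sh-NC replicate 2, where the log2 fold change was -0.39. In J.gamma1 E2F5 was called higher, so that its calls in the lines were opposite as well. That call was lost without sh-NC replicate 1 (log2 fold change 0.20), sh-LDB1 replicate 1 (0.30) or sh-LDB1 replicate 2 (0.32).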
